A study of Mus musculus with 8 samples.

Results

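The genes described here are the bone sialoproteins Spp1, Ibsp, Dmp1 and Mepe, with 6 genes that promote, limit or accompany the deposition of mineral in matrix, Alpl, Phospho1, Enpp1, Ank, Mgp and Sparc. They were chosen by symbol because Spp1 and Ibsp moved in opposite directions in the comparison reported below, so the values of that pair are a description and not independent evidence. Of the 10 genes, 9 have an entry in the authors' deposited table of 31607 genes and Mepe has none. Of those 9, 8 were tested, while Dmp1 was too low for an adjusted p.

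The study compared, by bulk RNA sequencing, mesenchymal cells from the lungs of adult mice with and without Hhip, an inhibitor of hedgehog signalling, in 4 HhipCKO and 4 Control libraries. The HhipCKO mice were UBCcreER/Myh11creER/Hhipflox/flox, with tamoxifen-activated recombinase under the broadly active ubiquitin C promoter and the smooth muscle Myh11 promoter, and the Control mice were Hhipflox/flox with no recombinase. Mice were given tamoxifen, per the labels, so that loss of Hhip and recombinase activity cannot be told apart. Live cells without CD45, CD31 and Epcam were sorted, and the labels do not say whether each library came from a separate mouse. If they did not, the p-values measure only the spread between these libraries.

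Mineral is laid down in bone and cartilage when phosphate is freed at the cell surface and in matrix vesicles, and when pyrophosphate, which blocks crystal growth, is removed. The sialoproteins are secreted, acidic, phosphorylated proteins that bind calcium and carry an integrin-binding motif, and their genes lie next to each other in mammals. In lung, osteopontin, the product of Spp1, is best known from macrophages and fibrotic tissue, whereas Ibsp, Dmp1 and Mepe are known mainly from bone and tooth. Mgp, matrix Gla protein, keeps soft tissue free of mineral.

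The upstream sequences of Spp1 and Ibsp are shown because these neighbouring genes of the same orientation carried the opposite changes. Each run is the 250 bases before a RefSeq transcription start on GRCm38.p6, plus strand, 5′ to 3′. Capitals mark matches on either strand to any of 4 motifs. The CCAAT box was searched as its own letters and the TATA box as TATAAA. The core bound by RUNX factors was searched as TGTGGT and the site of GLI factors as GACCACCCA.
Spp1, first RefSeq start, chr5:104434861-104435110: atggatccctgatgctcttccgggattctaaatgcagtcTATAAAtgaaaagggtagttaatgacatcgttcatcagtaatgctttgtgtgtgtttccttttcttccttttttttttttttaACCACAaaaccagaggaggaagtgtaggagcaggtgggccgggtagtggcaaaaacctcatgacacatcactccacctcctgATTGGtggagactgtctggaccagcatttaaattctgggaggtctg
Ibsp, chr5:104299037-104299286: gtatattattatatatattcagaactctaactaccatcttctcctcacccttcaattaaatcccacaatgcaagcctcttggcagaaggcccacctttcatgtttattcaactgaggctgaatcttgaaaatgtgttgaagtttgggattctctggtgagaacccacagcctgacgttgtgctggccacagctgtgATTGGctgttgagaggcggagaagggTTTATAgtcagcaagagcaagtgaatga

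Both windows have a reverse-strand CCAAT match close to the start, from base -46 to -42 in Spp1 and from -54 to -50 in Ibsp. The TATAAA letters lie from -28 to -23 on the reverse strand in Ibsp and from -211 to -206 in Spp1. The RUNX core is found in Spp1, from -128 to -123 on the reverse strand, and not in this window of Ibsp. RefSeq promoters were found for 9 of the 10 genes, all but Mgp, with 12 windows in all, since some genes have a further start. The CCAAT letters are in 6 of the 12 windows, those of Spp1, Ibsp, Dmp1, Mepe and Phospho1, against 33.8% of 32851 promoter windows of the same length. The TATAAA letters are in 4 of the 12, against 12.4% of all windows, and the RUNX core is also in 4 of the 12, against 14% of all windows. E-box letters (CANNTG), left in lower case, are in 10 of the 12 and in 66.2% of all windows. The GLI letters GACCACCCA are in 0 of the 12 and in 0.225% of all windows. RefSeq and GENCODE M21 put the start of Ibsp 116 bases apart and that of Spp1 7 bases apart, with GENCODE the more upstream for Ibsp, so part of the Ibsp window is exon in GENCODE.

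The targeted gene was checked first. Hhip was listed at a log2 change of -2.62 in the authors' deposited table, with an SE of 0.32 and adjusted p = 9.55e-13. Over all genes, 1219 of 17469 passed an adjusted p of 0.05 by the authors' Wald test, which is 6.98% of those tested, with 3.06% higher and 3.92% lower in HhipCKO. Mean normalized counts, the authors' average over the 8 libraries after scaling for depth, sum to 128669692 per library. Single libraries have no value in the authors' deposited table, so group levels given here are those implied by the mean and the fold change, with no SD of their own.

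Spp1, the gene of the integrin ligand osteopontin, fell in HhipCKO. Its mean normalized count over all libraries was 8370 in the authors' deposited table, which with the fold change implies 11414 in Control and 5325 in HhipCKO. The authors' deposited table gives a log2 change of -1.10 with an SE of 0.30 and adjusted p = 0.00801. HhipCKO therefore stood at 46.7% of the Control level, with a 95% interval from 31.1 to 70.0%. Among all genes called lower, 109 had a log2 fold change at least as low, Spp1 included. The gene (ENSMUSG00000029304) spans chr5:104435118-104441050 on GRCm38, plus strand.

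Ibsp, which encodes bone sialoprotein, a nucleator of mineral crystals in bone, rose from a low level. Its mean normalized count was 151 in the authors' deposited table, implying 49.2 in Control and 252 in HhipCKO. The authors' deposited table gives a log2 change of 2.36 with an SE of 0.53 and adjusted p = 0.000768. This is a 5.12-fold higher level with a 95% interval from 2.51 to 10.5. It ranked 10 among all genes called higher when these were ordered by log2 fold change. The gene (ENSMUSG00000029306) spans chr5:104299171-104311469 on GRCm38, plus strand.

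The pair kept its order of abundance in spite of the opposite changes. Per kb of the longest annotated transcript, the implied level of Spp1 was 318 times that of Ibsp in Control and 29.0 times in HhipCKO. Spp1 reached 3534 normalized counts per kb in HhipCKO and Ibsp 122. Both calls ended when the Wald statistics of the authors' deposited table were scaled to a robust SD of 1, with adjusted p = 0.565 for Spp1 and 0.347 for Ibsp, a setting under which 0.103% of all genes passed. They also ended when a change of at least 1.5-fold was demanded, where 0.0458% of all genes passed. Bulk libraries cannot tell fewer cells that express a gene from less RNA in each of them, for this pair and for every gene below.

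Dmp1, an acidic phosphoprotein of osteocytes and dentin, was too low to be tested. It had a mean normalized count of 17.4 in the authors' deposited table, below the 42.1 of the lowest gene that was tested. It was listed at a log2 change of -1.60 in the authors' deposited table, with an SE of 1.01 and an unadjusted p of 0.112. The 95% interval of the HhipCKO level, from 8.39 to 129.5% of Control, spans both a deep loss and a modest gain. Dspp, the dentin sialophosphoprotein gene and the remaining neighbour of the family, was lower still, with a mean normalized count of 6.77 and a log2 change of -0.24 in the authors' deposited table, with an SE of 1.72.

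**Figure D1:**
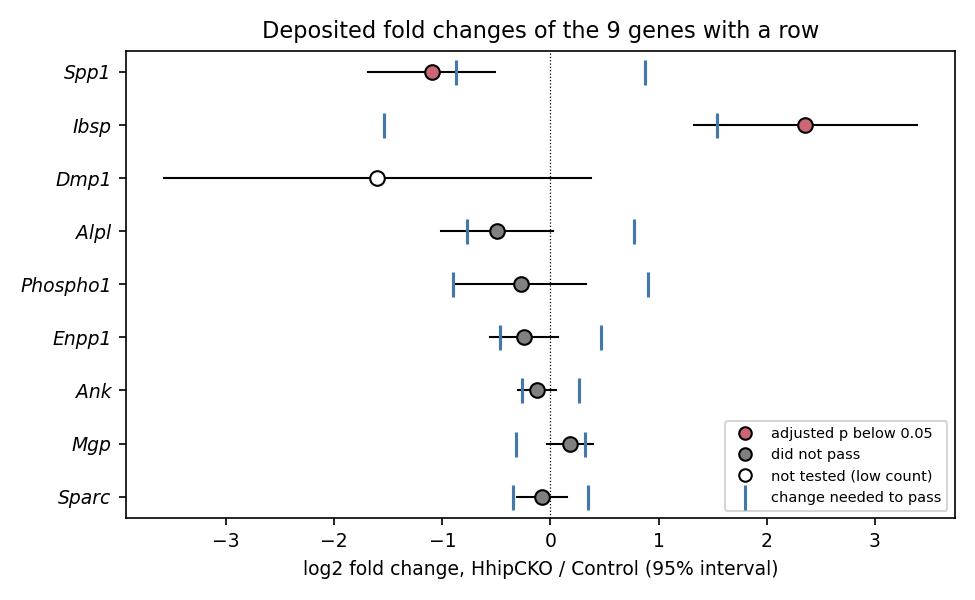
Log2 fold change of HhipCKO against Control (x axis) for the 9 genes with an entry, with 95% intervals computed from the authors' standard errors; blue ticks mark the size of change that each gene would have needed to pass, given its standard error. Spp1 (-1.10) and Ibsp (2.36) lie beyond their ticks on opposite sides, the other 6 tested genes lie between theirs, and Dmp1 was not tested.

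Among the enzymes that free phosphate, neither passed the threshold. Alpl, tissue-nonspecific alkaline phosphatase, which splits pyrophosphate, had a mean normalized count of 7774 in the authors' deposited table, implying 9098 in Control and 6450 in HhipCKO. It was listed at a log2 change of -0.50 in the authors' deposited table, with an SE of 0.26 and adjusted p = 0.258. The interval of the HhipCKO level ran from 49.5 to 102% of Control and overlapped that of Spp1. Phospho1, the phosphatase that frees phosphate from phospholipid head groups inside matrix vesicles, was listed in the authors' deposited table at a mean normalized count of 924 and a log2 change of -0.27, with an SE of 0.31 and adjusted p = 0.668. Phospho1 lies within the annotated span of Zfp652 on the same strand and overlaps Abi3 on the other, with mean normalized counts of 11522 and 886 in the authors' deposited table. How the authors assigned shared reads is not given in the sources used here, so the value of Phospho1 is uncertain.

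The genes that supply pyrophosphate were measured more tightly. Enpp1, the ectoenzyme that makes pyrophosphate from ATP, was listed at a log2 change of -0.25 in the authors' deposited table, with an SE of 0.16 and adjusted p = 0.378. Ank, the membrane protein through which ATP and pyrophosphate leave the cell, was listed at -0.13 in the authors' deposited table, with an SE of 0.09 and adjusted p = 0.439. For Ank the HhipCKO level had a 95% interval from 81.1 to 104% of Control, and for Enpp1 one from 67.8 to 105%. Ank overlaps Otulin, which lies on the other strand and had a mean normalized count of 1510 in the authors' deposited table, against 4307 for Ank. Per kb of transcript, the implied level of Alpl was 5.71 times that of Enpp1 in Control and 4.80 times in HhipCKO.

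Mgp and Sparc were among the most abundant messages of the sorted cells. Mgp had a mean normalized count of 365588 in the authors' deposited table, a level higher than 99.9% of tested genes, with or without scaling for transcript length. It was listed at a log2 change of 0.18 in the authors' deposited table, with an SE of 0.11 and adjusted p = 0.340, and the HhipCKO level had a 95% interval from 97.7 to 131% of Control. Sparc, osteonectin, a collagen- and calcium-binding matrix glycoprotein, was listed in the authors' deposited table at a mean normalized count of 463295 and a log2 change of -0.08, with an SE of 0.12 and adjusted p = 0.763. Its HhipCKO level had a 95% interval from 80.7 to 111% of Control. Per kb of transcript the overall level of Mgp was 92.1 times that of Spp1, and that of Sparc 36.3 times. With merged exon lengths these ratios were 60.6 and 24.1.

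Per kb of the longest annotated transcript, the order of the overall levels was Mgp, Sparc, Spp1, Alpl, Ank, Enpp1, Phospho1, Ibsp and Dmp1. The levels in normalized counts per kb were 511312 for Mgp, 201432 for Sparc, 5554 for Spp1 and 3083 for Alpl. They were 1231 for Ank, 582 for Enpp1, 484 for Phospho1, 72.9 for Ibsp and 6.31 for Dmp1. Phospho1 and Enpp1 are close neighbours in this order, and they exchange places when merged exons set the length. The implied group levels keep the same order in both groups. Spp1 and Alpl were further apart in Control, at 7574 and 3608 normalized counts per kb, than in HhipCKO, at 3534 and 2558. The last gap is about as large as the variation between libraries implied for either gene, 29.2 and 25.9%.

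**Figure D2:**
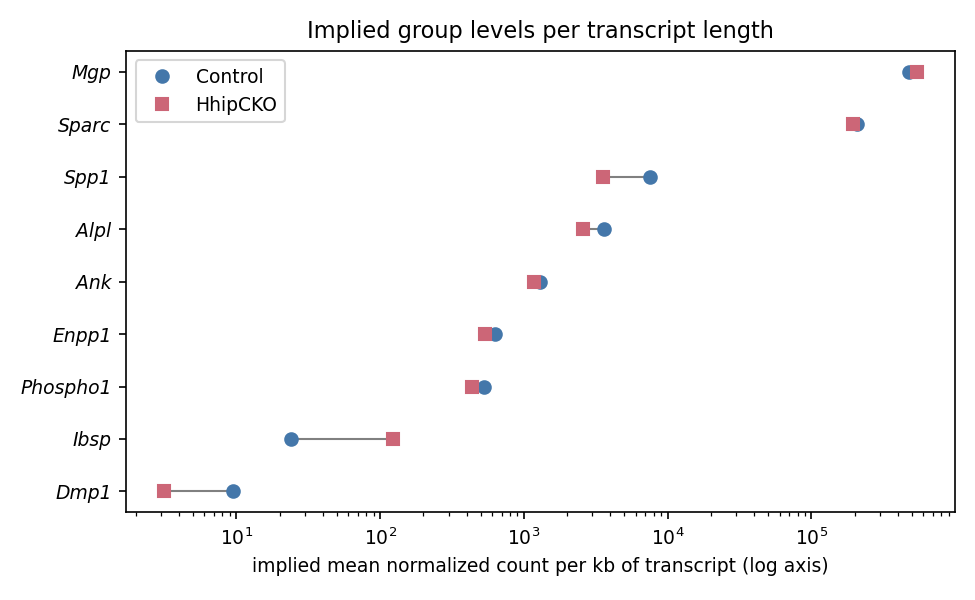
Implied mean normalized count per kb of the longest annotated transcript (x axis, log scale) in Control (circles) and HhipCKO (squares) for the 9 genes. Mgp and Sparc stand apart at the right, from 195986 counts per kb upwards, and the widest gaps between groups are those of Ibsp, Dmp1 and Spp1; no error is drawn because the levels are derived from 1 mean and 1 fold change per gene.

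The standard errors say how far the libraries of a group differed. Under a negative binomial model, the standard error of Spp1 implies a coefficient of variation of 29.2% between libraries beyond counting noise. This was higher than in 91.0% of the 200 tested genes nearest to it in mean count, whose median was 12.5%. Alpl, at 25.9%, also stood above 90.0% of the genes nearest in mean count. Ibsp had an implied variation of 50.5%, with a median of 30.8% among its 200 nearest genes.

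Ank, Mgp and Sparc varied little, at 8.71, 10.7 and 11.6%. With these errors, Ank would have passed at a 1.20-fold change, Mgp at 1.25-fold and Sparc at 1.27-fold, while Enpp1 needed 1.38-fold. Alpl, Spp1 and Phospho1 needed 1.71-fold, 1.83-fold and 1.87-fold, and Ibsp 2.91-fold. The DESeq family of tools pulls such variations towards a trend over genes, so they describe the fitted error and not the raw scatter of 4 libraries.

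**Figure D3:**
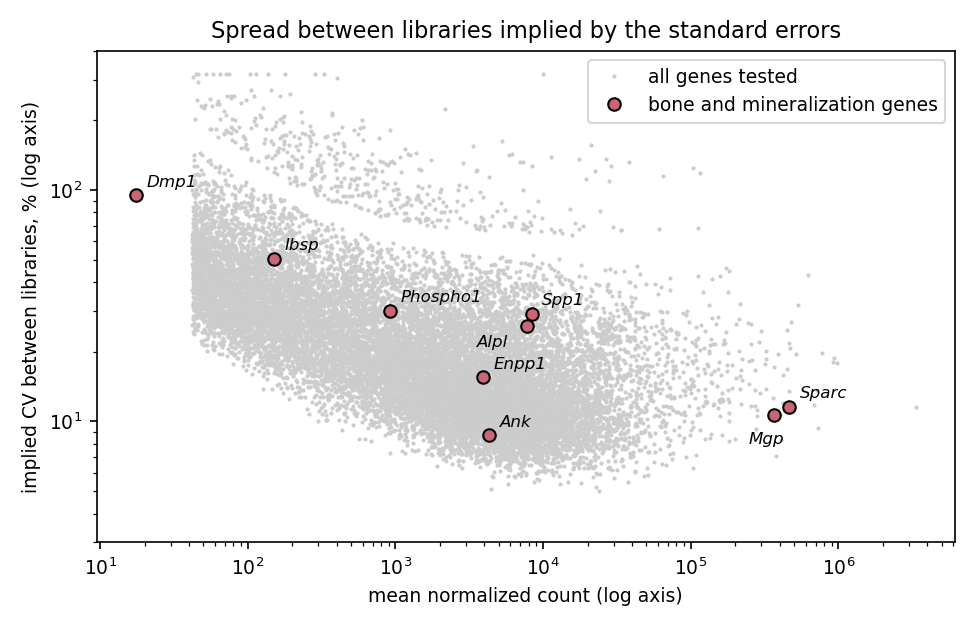
Coefficient of variation between libraries implied by each standard error (y axis, percent, log scale) against the mean normalized count (x axis, log scale) for all tested genes with a value above 0 (grey) and the 9 genes (red). Spp1 (29.2%) and Alpl (25.9%) lie above most genes of like abundance, and Ank (8.71%) lies near the lower edge.

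Of the 8 tested genes, 1 rose, 1 fell and 6 did not pass, beside 6.98% called among all genes tested. Nothing can be read from this count, since the comparison itself chose Spp1 and Ibsp. The median log2 fold change of the 8 was -0.19, against 0.02 over all tested genes. The 6 that did not pass lay between log2 changes of -0.50 and 0.18, at adjusted p from 0.258 to 0.763, as the authors' deposited table lists them.

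The sialoprotein genes lie in a row on chromosome 5, in the order Dspp, Dmp1, Ibsp, Mepe and Spp1, all on the plus strand, within 270 kb. Within 500 kb on either side of the stretch from Dmp1 to Spp1, 29 genes are annotated, 27 have an entry and 15 were tested. Besides Ibsp and Spp1, 1 of these passed, namely Aff1, a transcription elongation factor gene at the edge of the window, listed at a log2 change of -0.66 in the authors' deposited table with an SE of 0.14 and adjusted p = 0.000287. The median over the 15 was -0.03. Of those that did not pass, Nudt9 and BC005561 came closest. The authors' deposited table lists them at log2 changes of 0.25 (SE 0.09, adjusted p = 0.0532) and -0.38 (SE 0.14, adjusted p = 0.0758). Sparcl1, a relative of Sparc that flanks the cluster, was listed at a log2 change of -0.03 (SE 0.14) and a mean normalized count of 461377 in the authors' deposited table. On the far side of Spp1, the polycystin gene Pkd2 was listed at -0.15 (SE 0.14) in the authors' deposited table. The start of Ibsp lies 136 kb from that of Spp1.

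A short GENCODE model on the same strand, Gm42793, lies inside Spp1 over 1252 bases. The authors' deposited table lists it at a mean normalized count of 53.7 and a log2 change of -1.79, with an SE of 0.68 and adjusted p = 0.0856. Its mean count is 0.642% of that of Spp1. How the authors assigned reads shared by both genes is not given in the sources used here. What the overlap takes from the count of Spp1 is therefore not known.

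**Figure D4:**
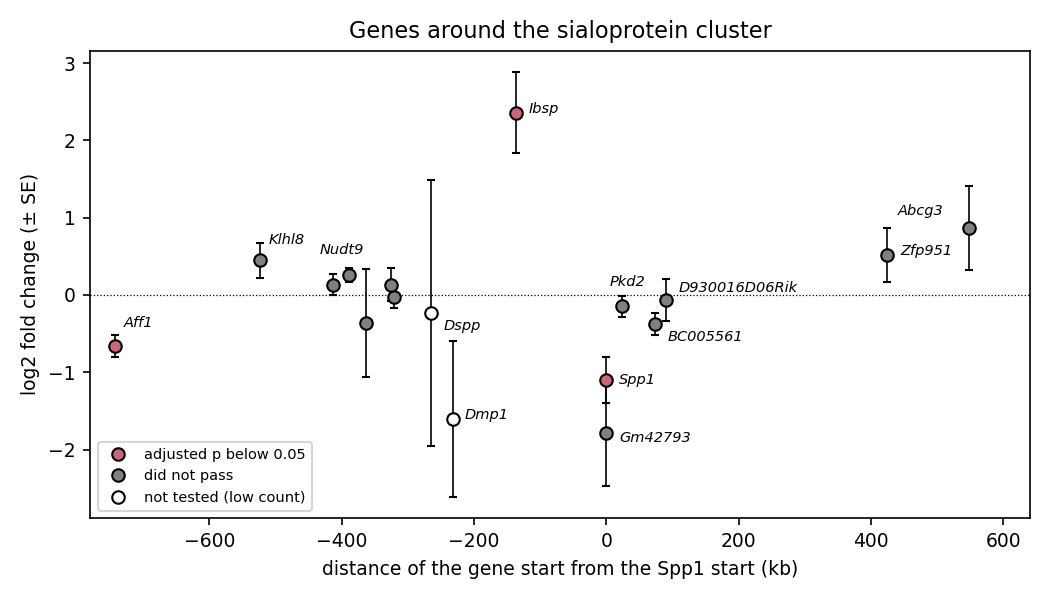
Log2 fold change (y axis, ± SE) of the tested genes around the sialoprotein cluster, with the untested Dspp and Dmp1, against the distance of each gene's start from the start of Spp1 in kb (x axis). Ibsp (2.36) is the highest point; Spp1 (-1.10) lies above Gm42793 (-1.79), which overlaps it, and the untested Dmp1 (-1.60), and Aff1 (-0.66) is the other gene past the threshold.

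Other genes of mineral biology were taken from 7 lists, written with earlier results of these data known. Of 57 tested genes, 2 rose, 2 fell and 53 did not pass. The share called was 7.02%, close to the 6.98% over all genes, and the median log2 fold change was -0.13 against 0.02. Ppa1, a cytosolic pyrophosphatase, was the 1 of 14 phosphate and pyrophosphate genes to pass, and it fell. Its log2 change was -0.48 in the authors' deposited table, with an SE of 0.11 and adjusted p = 0.00161. Annexins A5 and A2 (Anxa5, Anxa2), calcium-binding proteins of matrix vesicles and the list's most abundant genes, did not pass. The authors' deposited table lists them at log2 changes of 0.20 (SE 0.08) and -0.17 (SE 0.14).

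The fetuin genes rose, in a list of 10 tested genes of calcification control and Gla proteins in which the other 8 did not pass. Ahsg, fetuin-A, a secreted protein that binds mineral in serum, was listed at a log2 change of 0.64 in the authors' deposited table, with an SE of 0.19 and adjusted p = 0.0168. Fetub, fetuin-B, was listed at 0.63 in the authors' deposited table, with an SE of 0.18 and adjusted p = 0.0160. They are neighbours on chromosome 16 of GRCm38, with Ahsg at chr16:22891277-22899449 and Fetub at chr16:22918334-22939778. Both calls were lost when a trend on transcript length was taken out of the log2 changes of the authors' deposited table, with 0.50 for each and adjusted p = 0.118 for Ahsg and 0.111 for Fetub. The proteoglycan gene Bgn and the Gla protein gene Gas6, the list's most abundant, were listed at log2 changes of 0.07 (SE 0.12) and 0.24 (SE 0.13) in the authors' deposited table. Ggcx, the carboxylase that modifies Mgp, was listed at -0.14 in the authors' deposited table, with an SE of 0.07 and adjusted p = 0.203.

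Receptors for osteopontin did not pass, 0 of 10, with 9 negative values and a median log2 fold change of -0.14 and 1 below an unadjusted p of 0.05 by the authors' Wald test, against 21.8% of all genes tested. That 1 was Itga5, listed at a log2 change of -0.97 in the authors' deposited table (SE 0.35, adjusted p = 0.0717). Itga8 and Itgb1, the most abundant of the receptors, were listed at log2 changes of -0.07 (SE 0.25) and -0.17 (SE 0.14) in the authors' deposited table. None of 6 tested relatives of Sparc passed either, with a median of -0.06 and 1 below an unadjusted p of 0.05 by the same test. Besides Sparcl1, the most abundant was Fstl1, for which the authors' deposited table gives a log2 change of -0.08 (SE 0.16).

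Markers of bone-forming cells did not pass, 0 of 10 tested of 17 listed, with 5 positive and 5 negative values and a median log2 fold change of 0.17. The count was 1 of 10 with the length trend removed, where 3.08% of all genes passed. It was 1 of 8 at a mean count of 500 or more, where 9.16% of all genes passed. At an unadjusted p of 0.05 by the authors' Wald test, 4 of the 10 passed, beside 21.8% of all genes tested. Pth1r came closest to the adjusted threshold, at a log2 change of 0.37 in the authors' deposited table (SE 0.13, adjusted p = 0.0515). The other 7 of the list were below the level for testing, at mean normalized counts from 4.19 to 36.5 in the authors' deposited table. Bglap, the osteocalcin gene, and Sp7, an osteoblast transcription factor, were among these, at 5.30 and 36.5 in the authors' deposited table. Cdh11, a mesenchymal cadherin, and Phex, an endopeptidase acting on sialoprotein peptides, were the most abundant of the list. The authors' deposited table lists Cdh11 at a log2 change of 0.40 (SE 0.19, adjusted p = 0.205) and Phex at 0.77 (SE 0.28, adjusted p = 0.0680). Runx2, which drives Ibsp and Spp1 in bone cells, was listed at 0.53 in the authors' deposited table, with an SE of 0.31 and adjusted p = 0.319.

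Genes of mineralizing cartilage were mostly negative, with 5 of 7 values below 0 and a median log2 fold change of -0.58. Of the 7, 1 passed the threshold, beside 6.98% of all genes tested. At an unadjusted p of 0.05 by the authors' Wald test, 4 of the 7 passed, beside 21.8% of all genes tested. Col10a1, the collagen of hypertrophic cartilage, fell. It was listed at a log2 change of -2.33 in the authors' deposited table, with an SE of 0.76 and adjusted p = 0.0360. Its call was lost when the p-values of the authors' deposited table were adjusted with no filter on low counts (adjusted p = 0.0611), and when the length trend was taken out (0.0568). Col2a1 and Sox9, the cartilage collagen and its regulator, did not pass, and the authors' deposited table lists them at -2.25 (SE 0.83) and -0.60 (SE 0.27). Ihh and Mef2c had positive values, at 1.14 (SE 0.55, adjusted p = 0.202) and 0.10 (SE 0.20) in the authors' deposited table.

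Chondrocytes and macrophages can also hold Spp1 or Ibsp, so their markers were read beside that pair. Of 11 tested chondrocyte markers, 8 fell, beside 3.92% of all genes tested. All 11 had negative values and the median log2 fold change was -1.96. The count was 6 when the p-values of the authors' deposited table were adjusted with no filter on low counts, where Acan (adjusted p = 0.0645) and Cytl1 (0.0761) lost their calls. It was 7 with the length trend removed, where Acan (0.0970) lost its call. Of all genes, 3.05% and 3.08% passed under these settings. The count was 0 with scaled Wald statistics or a minimum change of 1.5-fold, where 0.103% and 0.0458% of all genes passed. The implied levels of the chondrocyte markers summed to 40640 normalized counts in Control and 9886 in HhipCKO. Macrophage markers had a median of 1.04, with 1 of 15 past the threshold (Ccr2, a call lost under each of the 5 alternatives that tested it), 11 positive and 4 negative values. Of these 15, 3 were below an unadjusted p of 0.05 by the authors' Wald test, against 21.8% of all genes tested. The implied levels of the macrophage markers summed to 45120 in Control and 77719 in HhipCKO, a direction that rests on Lyz2, the lysozyme gene. Lyz2 was implied at 19472 in Control and 56344 in HhipCKO, and the authors' deposited table gives it a log2 change of 1.53, with an SE of 1.35 and adjusted p = 0.556. Without Lyz2 the macrophage sum was 25648 in Control and 21375 in HhipCKO. The negative values were those of Csf1r, Gpnmb, Mertk and Trem2, from -0.59 to -0.28 in the authors' deposited table. No marker in these lists was without an entry, although Matn3 and Fcgr1 were below the level for testing. The part of either cell type in the values of Spp1 and Ibsp was not tested. Of the other marker lists, those of endothelium and leukocytes had 0 of 6 tested genes past the threshold each, and that of smooth muscle and pericytes 1 of 9 (Kcnj8, higher). Of 10 epithelial markers 1 passed, Muc5b, which was lower. Its call was lost with the length trend taken out of the values of the authors' deposited table (adjusted p = 0.147). The epithelial sum was 132456 in Control and 238919 in HhipCKO, and 75794 and 87937 without the surfactant gene Sftpc. Sftpc did not pass (log2 change of 1.41, SE 1.27 in the authors' deposited table). Nor did Sftpb, another surfactant gene (1.17, SE 1.30), implied at 17639 in Control and 39717 in HhipCKO. The higher epithelial sum in HhipCKO rests on Sftpc and Sftpb. Ptprc, Pecam1 and Epcam, the genes of the proteins sorted against, were still detected, at mean normalized counts of 750, 816 and 655 in the authors' deposited table. Markers of mesenchyme, the cell type named in the labels and not itself sorted for, were present at high levels. Col3a1 and Col1a2 had mean normalized counts of 975871 and 926585 in the authors' deposited table, and 0 of 9 mesenchymal markers passed the threshold. In the lists of endothelium, leukocytes and mesenchyme, 0 genes were below an unadjusted p of 0.05 by the authors' Wald test.

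**Figure D5:**
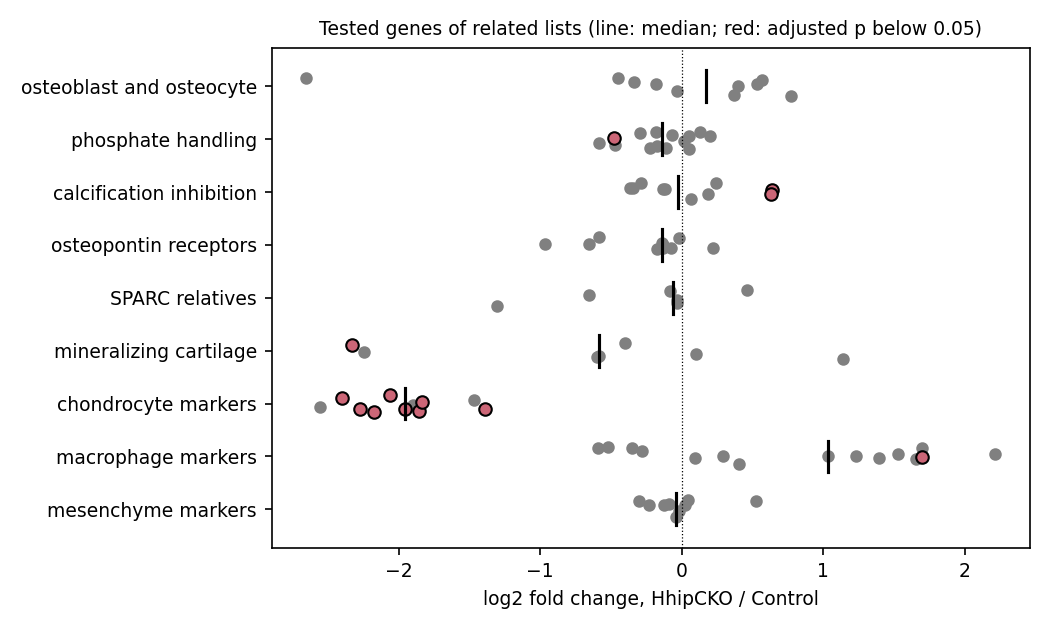
Log2 fold change (x axis) of each tested gene in 6 lists of related genes and 3 lists of cell type markers (rows, points spread vertically for legibility), with the median of each list as a black line and genes past an adjusted p of 0.05 in red. Chondrocyte markers lie to the left of 0 with a median of -1.96, and macrophage markers spread to the right with a median of 1.04. The medians of the lists of mineral biology lie around 0, apart from mineralizing cartilage. Single genes of these lists lie further out, the lowest being Fgf23 (-2.66) among osteoblast and osteocyte genes, which did not pass.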

How the data were processed

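Reads were handled by the authors with FastQC, STAR and DESeq on GRCm38 (mm10), per the submitters' processing notes, without versions. Counting tool, strand setting and annotation are not given in the sources used here. RNA was isolated from cultured cells per the labels' protocols, whereas the series text describes sorted cells.

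Columns of the deposited table are the mean over libraries of depth-scaled counts (a signal), the log2 fold change, 2 scores (its standard error and the Wald statistic) and the raw and adjusted p-value. The authors' adjusted p at 0.05 was used as deposited. Tests on samples could not be run. Depth per library was not analysed here.

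Intervals at 95% are normal. Group levels solve the mean and the fold for 4 libraries each. The implied variation subtracts counting noise from the squared standard error. Lengths and coordinates are from GENCODE M21, and promoters from RefSeq, GRCm38.p6. A lowess with a span of 0.3 removed the length trend (Python 3.11.15, statsmodels 0.14.6). Steps were tested on simulated data.

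The 10 genes and the lists were chosen with earlier results of these data known. The rule for named genes takes the 10, list genes past the threshold, each list's 2 most abundant, Ptprc, Pecam1, Epcam, and neighbours within 500 kb. Not every neighbour or marker that the rule takes is named above. Outside it, Bglap, Sp7, Runx2 and Ggcx were added for their roles, and Zfp652, Abi3 and Otulin because they overlap a gene described. Matn3 and Fcgr1 were added as untested markers. Csf1r, Mertk, Trem2, Pth1r, Itga5, Fgf23, Ihh, Mef2c and Sftpb were added after their values were seen.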

Additional observations from a re-analysis of the deposited data

How the results depend on the processing

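Of the 8 tested genes, 2 passed as deposited. The count stayed at 2 without a filter on low counts, with median-centred fold changes and with the length trend removed. Of all genes tested, 3.05%, 7.24% and 3.08% passed under these settings, against 6.98% as deposited. The count was 1 when a mean count of 500 or more was demanded, because Ibsp falls below that level. At that setting 9.16% of all genes tested passed. The count was 0 when the Wald statistics were scaled to a robust SD of 1 (theirs was 1.53). It was also 0 when a change of at least 1.5-fold was required. Under these last settings 0.103% and 0.0458% of all genes passed. Of the 57 other genes of mineral biology, 4 passed as deposited and 0 under either of those settings. The count was 5 of 50 at a mean count of 500 or more. It was 3 of 67 without a filter on low counts and 3 of 57 with the length trend removed. With the length trend taken out of the log2 changes of the authors' deposited table, Spp1 stood at -1.23 (adjusted p = 0.00412), Ibsp at 2.26 (adjusted p = 0.00261) and Mgp at 0.0027. Merged exon lengths moved the levels of 4 genes by more than their implied variation (Alpl, Mgp, Enpp1 and Sparc) and exchanged Enpp1 with Phospho1.

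No paired analysis was possible because the deposited table holds no values per sample. For the same reason, leaving out single libraries was not run. With 1 fitted value per gene, a change carried by a single library cannot be told apart from one in all 4, for Spp1 and Ibsp as for the rest. Dmp1 and Ibsp had the lowest mean counts of the 9 genes. Counting noise implied for them was 27.7 and 11.0%, below their implied variation between libraries of 94.8 and 50.5%. By the authors' Wald test, Dmp1 had an adjusted p of 0.556 when no filter on low counts was applied to the authors' deposited table.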
